A study of Mus musculus with 6 samples.

Results

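The Hippo pathway effectors examined here are 10 genes of the 24444 gene symbols in the table. They comprise 4 genes commonly read as transcriptional targets of the pathway (Ctgf, Cyr61, Ankrd1 and Amotl2), the coactivator genes Yap1 and Wwtr1, and the 4 TEAD genes Tead1 to Tead4. Members were found by symbol, and all 10 were in the table. They were selected on Ctgf, which had stood out by its higher values in the mutants in this same contrast, and the other 9 for their place in the same pathway, with their results also known. The levels of the 10 members in mutant and control libraries are therefore a description and carry no test. Poly(A) RNA had been sequenced from the telencephalon, the embryonic forebrain region that forms the cortex and basal ganglia, of E12.5 embryos of the C57BL/6J mouse strain. The groups are 3 libraries labelled Arl13b-/- and 3 labelled wild-type, and the series asks how primary cilia bear on the growth of axon tracts. Arl13b codes for a ciliary small GTPase. The sources used here do not give the allele, the number of embryos per library or any pooling. Nothing says that the replicates are separate embryos, so each p-value measures the spread of the 6 libraries alone, and that spread may be technical.

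In the Hippo pathway, a kinase cascade in which STK3 and STK4 act on LATS1 and LATS2 keeps the coactivators YAP and TAZ out of the nucleus. When the cascade is inactive, YAP (Yap1) and TAZ (Wwtr1) enter the nucleus and bind TEAD factors, which carry the DNA-binding domain, and transcribe genes such as Ctgf and Cyr61. In the embryonic brain the pathway is known for its part in the growth of the neural progenitor pool. Ctgf and Cyr61 encode secreted matricellular proteins of the CCN family, Ankrd1 a muscle ankyrin-repeat protein, and Amotl2 an angiomotin-like junction protein that also holds YAP back. RefSeq and newer annotations call Ctgf Ccn2 and Cyr61 Ccn1.

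Values are variance-stabilised and on a log2-like scale, and undoing the transformation gave normalized counts. These summed to between 28300000 and 36200000 in the Arl13b-/- libraries and to between 27500000 and 27900000 in the wild-type libraries. One read was worth between 0.536 and 1.31 normalized counts, which puts the depth at an estimated 27600000 to 51600000 reads per library. Arl13b itself had 492, 532 and 564 normalized counts in Arl13b-/- 1 to 3, against 661, 553 and 560 in wild-type 1 to 3, so its gene-level transcript does not check the labels. A pair of libraries stood apart from the others in their cell-type markers. The summed normalized counts of 10 neural progenitor markers, led by Vim and Nes, were 124020, 3839 and 140456 in Arl13b-/- 1 to 3, against 46376, 110556 and 112821 in wild-type 1 to 3. Those of 10 neuron markers, led by Tubb3 and Stmn2, were 156003, 590513 and 154192 in Arl13b-/- 1 to 3, against 260554, 147394 and 149073 in wild-type 1 to 3. Arl13b-/- 2 and wild-type 1 were thus low in progenitor and high in neuron transcripts. Of the telencephalic markers, Lhx2, a forebrain transcription factor, had 7567, 7873 and 6127 normalized counts in Arl13b-/- 1 to 3, against 5070, 10254 and 12828 in wild-type 1 to 3. Tbr1, a factor of cortical neurons, had 1620, 12151 and 369 in Arl13b-/- 1 to 3, against 5737, 3193 and 4531 in wild-type 1 to 3, and was lowest in Arl13b-/- 3. In what follows, results are given over all 6 libraries and again without Arl13b-/- 2 and wild-type 1.

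TEAD factors bind a short core, GGAATG, and 6 of the 7 members with a RefSeq promoter window held it on one strand or the other. The windows run from 250 bases before to 50 bases after a gene's start (build GRCm38.p6), and no window was matched for Ctgf, Tead1 and Tead4. Tead2 had a window without these letters. The core was present in 14.7% of the 32841 windows searched and in 16.6% of the 27018 genes with a window. No member's window held a CArG box, the site of the serum response factor that drives many actin genes and is known to act on several of the same targets, and 1.63% of all windows did. The 250 bases before the start of the 3 targets with a window are printed because these are the genes that serve as pathway readouts, with the TEAD core or its reverse complement in capitals. They lie at chr3:145649986-145650235, minus strand, for Cyr61, chr19:36119845-36120094, minus strand, for Ankrd1, and chr9:102717554-102717803, plus strand, for Amotl2.
Cyr61: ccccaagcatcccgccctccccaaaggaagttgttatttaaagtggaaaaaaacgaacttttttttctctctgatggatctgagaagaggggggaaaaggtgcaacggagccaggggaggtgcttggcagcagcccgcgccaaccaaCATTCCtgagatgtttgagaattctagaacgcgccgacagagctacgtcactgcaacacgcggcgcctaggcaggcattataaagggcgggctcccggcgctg
Ankrd1: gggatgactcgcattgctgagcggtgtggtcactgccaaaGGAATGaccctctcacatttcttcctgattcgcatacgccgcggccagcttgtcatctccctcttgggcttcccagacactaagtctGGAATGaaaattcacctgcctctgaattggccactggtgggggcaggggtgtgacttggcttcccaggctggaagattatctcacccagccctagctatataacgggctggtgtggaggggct
Amotl2: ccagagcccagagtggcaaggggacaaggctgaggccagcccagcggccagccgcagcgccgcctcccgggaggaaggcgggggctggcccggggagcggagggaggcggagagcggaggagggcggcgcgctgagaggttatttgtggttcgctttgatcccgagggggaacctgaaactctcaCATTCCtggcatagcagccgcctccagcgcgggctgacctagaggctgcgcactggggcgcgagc

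The core began 103 bases before the start in Cyr61, 65 before it in Amotl2, and 210 and 123 before it in Ankrd1. The genes of the coactivators themselves held it too, as did Tead3, whose second window has a pair of cores within 30 bases. These stretches are shown because they belong to the effectors rather than to the targets. They lie at chr9:8004720-8004749, minus strand, for Yap1, chr3:57576029-57576058, minus strand, for Wwtr1, and chr17:28350706-28350735, minus strand, for Tead3, where the capitals mark the first of its neighbouring cores.
Yap1: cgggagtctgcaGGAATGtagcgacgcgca
Wwtr1: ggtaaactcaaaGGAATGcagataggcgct
Tead3: tccggccgggctCATTCCgtacattccggc

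The 10 transcripts spanned a wide range of levels, which were compared as normalized counts per kb of merged exon length. In the 4 libraries left without Arl13b-/- 2 and wild-type 1, Tead2 was the highest member, at 3026 and 2974 per kb in Arl13b-/- 1 and 3, against 2886 and 2965 in wild-type 2 and 3. Amotl2 (1256 and 1350, against 1196 and 1072) and Yap1 (1084 and 1138, against 1159 and 1156) came next and overlapped each other. Tead1 lay between 439 and 521 per kb and Wwtr1 between 405 and 443 over these 4 libraries, also overlapping. Cyr61 (220 to 321), Tead3 (172 to 227) and Ctgf (84.4 to 223) followed, and Tead4 lay between 7.24 and 26.2. Ankrd1 was at most 0.911 per kb in these libraries.

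**Figure D1:**
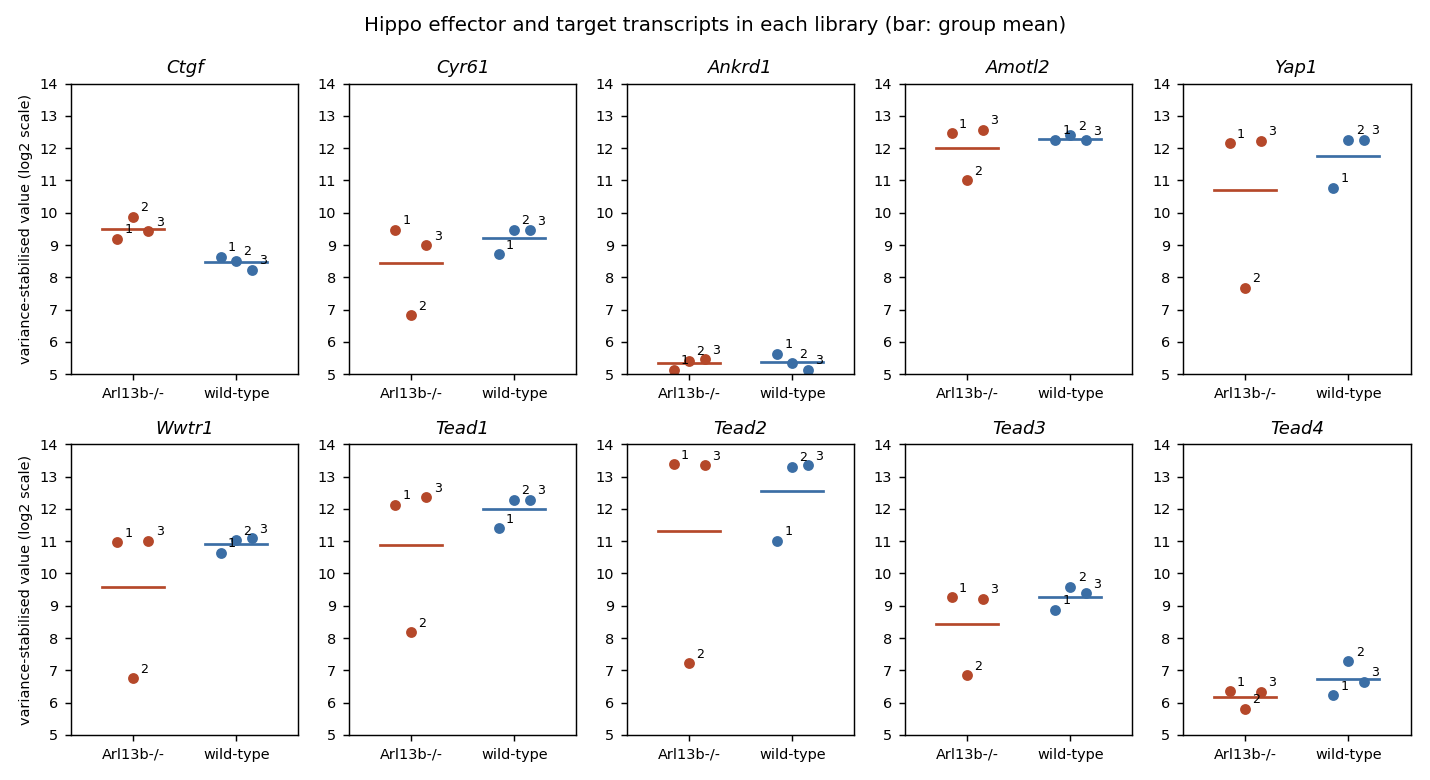
Variance-stabilised value (log2 scale) of each member in each library, with Arl13b-/- left of wild-type, numbers for the replicates and a bar for the group mean. The 3 Arl13b-/- libraries lie above the 3 wild-type libraries for Ctgf, and Arl13b-/- 2 lies below the other libraries for Yap1, Wwtr1, Tead1, Tead2 and Tead3.

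Among the targets, Ctgf was higher in every Arl13b-/- library than in any wild-type library. It had 522, 870 and 618 normalized counts in Arl13b-/- 1 to 3, against 331, 299 and 234 in wild-type 1 to 3. The lowest mutant value exceeded the highest control value, and the highest of all was that of Arl13b-/- 2. The variance-stabilised level was 9.50 ± 0.34 in Arl13b-/- and 8.46 ± 0.21 in wild-type (SD, n = 3 each), a difference of 1.04 ± 0.27 (SE) on the log2 scale. The mean normalized count was 2.32 times that of wild-type. Without Arl13b-/- 2 and wild-type 1 the difference was 0.94 ± 0.13 and the ratio 2.14. Over the 16 other settings tried, which include leaving out each library in turn, the difference lay between 0.85 and 1.20.

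Cyr61, which is usually read beside Ctgf, did not share this pattern. It had 642, 53.8 and 444 normalized counts in Arl13b-/- 1 to 3, against 355, 647 and 629 in wild-type 1 to 3. The groups overlapped, and Arl13b-/- 2 was the lowest library for Cyr61 while it was the highest for Ctgf. The difference was −0.79 ± 0.74 (SE) over 6 libraries and −0.23 ± 0.16 without Arl13b-/- 2 and wild-type 1, and leaving out Arl13b-/- 2 alone took it to 0.02. The ratio of Ctgf to Cyr61 counts within a library was 0.813, 16.2 and 1.39 in Arl13b-/- 1 to 3, against 0.935, 0.462 and 0.372 in wild-type 1 to 3. The ratio of Arl13b-/- 1 lay below that of wild-type 1, so this ratio overlapped between the groups.

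Amotl2 was the most abundant of the targets per length. It had 5606, 1981 and 6026 normalized counts in Arl13b-/- 1 to 3, against 4821, 5336 and 4784 in wild-type 1 to 3. Arl13b-/- 1 and 3 lay slightly above the controls and Arl13b-/- 2 well below them. The difference was −0.29 ± 0.45 (SE) over 6 libraries, and it turned to 0.20 ± 0.070 without Arl13b-/- 2 and wild-type 1 and to 0.22 without Arl13b-/- 2 alone. Ankrd1 was near the limit of detection, at 0, 1.31 and 1.84 normalized counts in Arl13b-/- 1 to 3, against 4.27, 0.660 and 0 in wild-type 1 to 3. It did not pass the filter on low values, and no fold is given because the counts are this low.

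**Figure D2:**
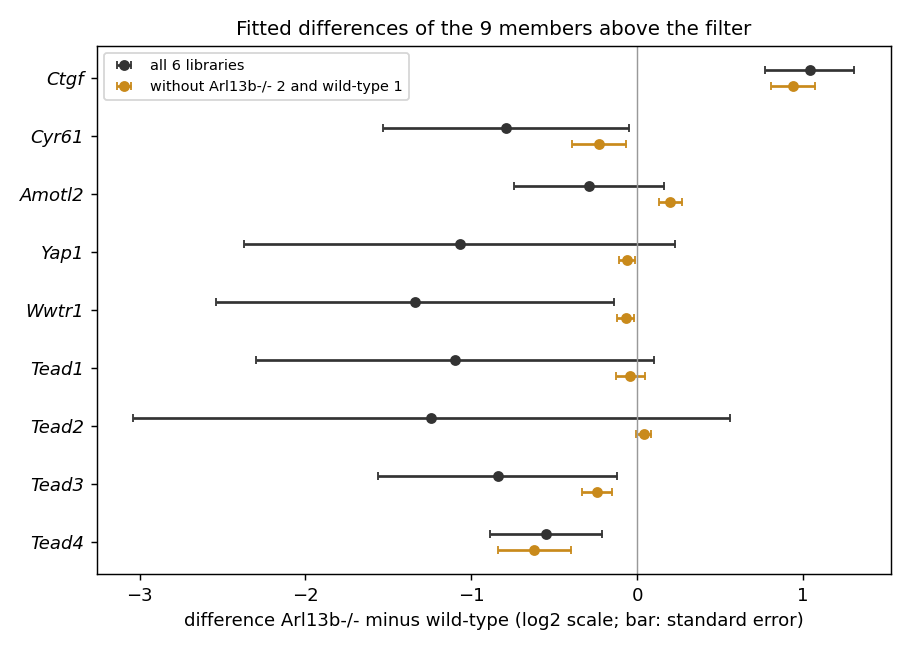
Fitted difference Arl13b-/- minus wild-type on the log2 scale, with its standard error, for the 9 members above the filter, over all 6 libraries and without Arl13b-/- 2 and wild-type 1. Ctgf lies at 1.04 and 0.94, whereas the negative differences of Yap1, Wwtr1, Tead1 and Tead2 over 6 libraries come to between −0.07 and 0.04 over 4.

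The coactivator transcripts were close to equal in the libraries left without Arl13b-/- 2 and wild-type 1. Yap1 had 4520, 141 and 4747 normalized counts in Arl13b-/- 1 to 3, against 1677, 4835 and 4822 in wild-type 1 to 3. Wwtr1 had 1937, 49.8 and 1998 in Arl13b-/- 1 to 3, against 1531, 2027 and 2116 in wild-type 1 to 3. For both genes Arl13b-/- 2 was the lowest library and wild-type 1 the next lowest, and the groups overlapped. Over 6 libraries the differences were −1.07 ± 1.3 for Yap1 and −1.34 ± 1.2 for Wwtr1 (SE), and they were −0.06 ± 0.048 and −0.07 ± 0.052 without Arl13b-/- 2 and wild-type 1. Leaving out Arl13b-/- 2 alone took them to 0.44 and 0.07. The ratio of Yap1 to Wwtr1 counts was 2.33, 2.84 and 2.38 in Arl13b-/- 1 to 3, against 1.10, 2.38 and 2.28 in wild-type 1 to 3, so wild-type 1 stood alone with relatively more Wwtr1.

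The TEAD genes, which encode the DNA-binding partners, followed the coactivators. Tead2, the TEAD gene known for expression in the early embryo and neural precursors, had 10594, 87.7 and 10413 normalized counts in Arl13b-/- 1 to 3, against 2008, 10104 and 10380 in wild-type 1 to 3. Tead1, a broadly expressed member, had 4413, 225 and 5233 in Arl13b-/- 1 to 3, against 2630, 4948 and 4916 in wild-type 1 to 3. From the average of wild-type 2 and 3, Arl13b-/- 1 and 3 differed by 0.05 and 0.02 log2 units for Tead2 and by −0.16 and 0.08 for Tead1. The difference was −1.24 ± 1.8 (SE) for Tead2 and −1.10 ± 1.2 for Tead1 over 6 libraries. It was 0.04 ± 0.045 and −0.04 ± 0.085 without Arl13b-/- 2 and wild-type 1, and 0.81 and 0.26 without Arl13b-/- 2 alone.

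Tead3 and Tead4 were scarcer. Tead3 had 548, 55.1 and 529 normalized counts in Arl13b-/- 1 to 3, against 404, 700 and 598 in wild-type 1 to 3, and the groups overlapped through wild-type 1. Its difference was −0.84 ± 0.72 (SE) over 6 libraries and −0.24 ± 0.091 without Arl13b-/- 2 and wild-type 1. Tead4, known for its role in the trophectoderm of the early embryo, had 27.1, 7.93 and 26.0 in Arl13b-/- 1 to 3, against 21.4, 93.9 and 42.4 in wild-type 1 to 3. Arl13b-/- 1 and 3 lay between wild-type 1 and 3. The difference was −0.55 ± 0.34 (SE) over 6 libraries and −0.62 ± 0.22 over 4. Wild-type 2 and 3 themselves differed by 0.64 for Tead4, more than that. Surface ectoderm markers were highest in the wild-type libraries, with a summed normalized count of 10 genes of between 120 and 633 in Arl13b-/- and between 1626 and 14601 in wild-type. Of these, Krt5 and Krt8 were at 0 in Arl13b-/- 2 and Krt14 in Arl13b-/- 3. The part of these cells in the Tead3 and Tead4 values was not tested.

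**Figure D3:**
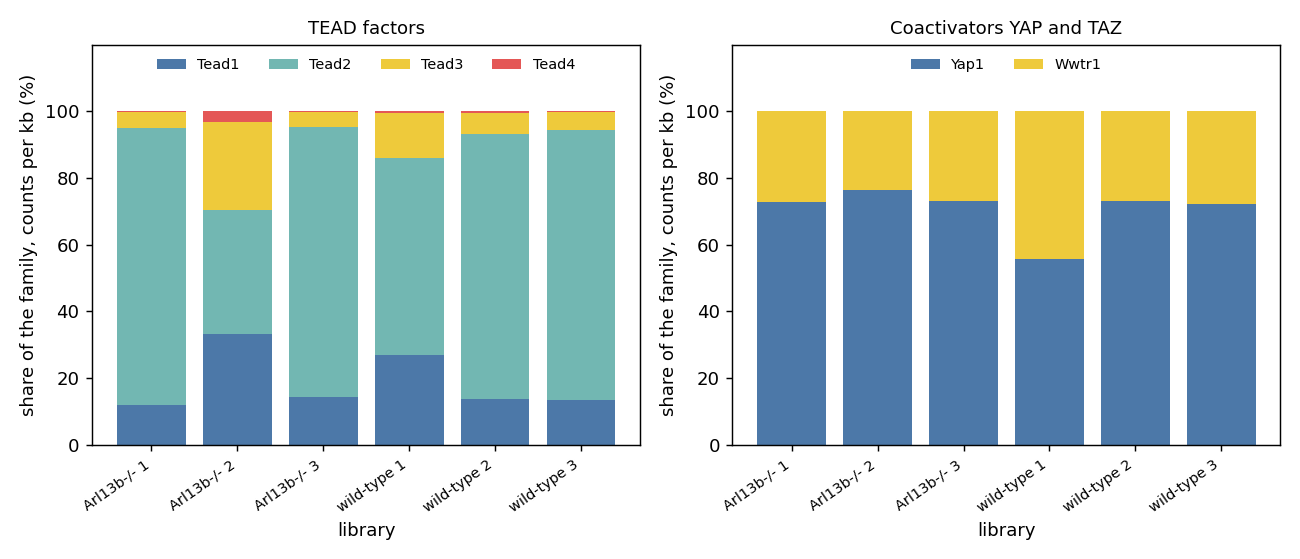
Share of each gene in the summed normalized counts per kb of the TEAD family (left) and of the coactivators (right), in percent, for each library, with the Arl13b-/- libraries left of the wild-type libraries. Tead2 makes up between 79.5% and 82.9% of TEAD transcript in 4 libraries, 37.1% in Arl13b-/- 2 and 59.0% in wild-type 1.

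Within the TEAD family, Tead2 made up 82.9%, 37.1% and 81.0% of the transcript per length in Arl13b-/- 1 to 3, against 59.0%, 79.5% and 81.0% in wild-type 1 to 3. In Arl13b-/- 2 the remaining transcript was 33.2% Tead1, 26.5% Tead3 and 3.27% Tead4, within a family total of 67.5 counts per kb, against 3651 and 3674 in Arl13b-/- 1 and 3. Wild-type 1 had a total of 973, against 3632 and 3660 in wild-type 2 and 3. Yap1 made up 72.8%, 76.5% and 73.1% of the coactivator transcript in Arl13b-/- 1 to 3, against 55.7%, 73.2% and 72.3% in wild-type 1 to 3. The make-up of both families was therefore alike in the 4 libraries with similar progenitor and neuron marker sums. The libraries that departed from it were 1 of each genotype. Those 4 differed in other markers, with telencephalic sums of 22553 and 10755 in Arl13b-/- 1 and 3, against 31064 and 40748 in wild-type 2 and 3.

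The level of Yap1, Wwtr1, Tead1 and Tead2 was lowest in Arl13b-/- 2 and next lowest in wild-type 1. The same order held for the medians of several lists, among them the neural progenitor, mesenchyme, proliferation and embryonic red cell markers. Set against the average of wild-type 2 and 3, the median of 10 progenitor markers differed by 0.14, −4.52 and 0.20 log2 units in Arl13b-/- 1 to 3 and by −1.32 in wild-type 1. Yap1 differed by −0.09, −4.58 and −0.02 in Arl13b-/- 1 to 3 and by −1.49 in wild-type 1, and Tead2 by 0.05, −6.11 and 0.02 and by −2.31. The median of the mesenchyme markers differed by −0.53, −3.94 and −0.46 in Arl13b-/- 1 to 3 and by −0.78 in wild-type 1. Wwtr1 differed by −4.30 in Arl13b-/- 2 and −0.42 in wild-type 1, and Tead1 by −4.10 and −0.89. In wild-type 1 both genes lay closer to the mesenchyme than to the progenitor median. In Arl13b-/- 2 Tead1 did so too, whereas Wwtr1 lay closer to the progenitor median. In Arl13b-/- 1 and 3 both Wwtr1 (−0.09 and −0.05) and Tead1 (−0.16 and 0.08) lay closer to the progenitor median. Proliferation markers, led by Top2a and Mki67, had a median of −5.53 in Arl13b-/- 2 and −2.05 in wild-type 1. The median of the red cell markers was −5.42 and −2.59 in these libraries. In bulk samples fewer cells of a type and less RNA per cell cannot be told apart. The part of progenitor, mesenchyme or any other cell content in these differences was not tested.

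**Figure D4:**
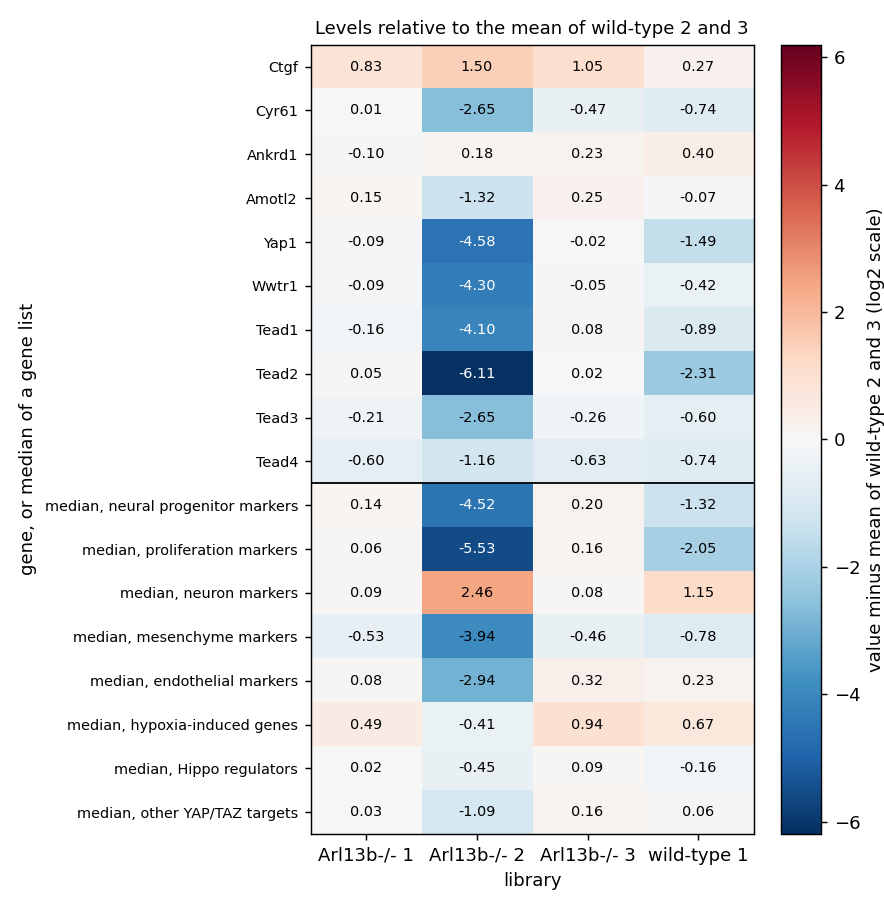
Difference from the mean of wild-type 2 and 3, in log2 units, of each member (upper rows) and of the median of 8 gene lists (lower rows) in the 3 Arl13b-/- libraries and wild-type 1. Tead2 (−6.11) and Yap1 (−4.58) are low in Arl13b-/- 2, as are the progenitor, proliferation and mesenchyme medians (−4.52, −5.53 and −3.94), and Ctgf is above 0 in all 4 columns.

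Ctgf was highest in Arl13b-/- 2, where the marker sums of mesenchyme and endothelium were lowest and those of neurons highest. Summed normalized counts of 10 mesenchyme markers, led by Col3a1 and Col1a1, were 27020, 609 and 32108 in Arl13b-/- 1 to 3, against 26842, 71655 and 35154 in wild-type 1 to 3. Col3a1, a fibrillar collagen gene, was at 1.31 normalized counts, or 1 read, in Arl13b-/- 2. The sum of 8 endothelial markers, led by Cdh5 and Kdr, was 7378, 642 and 9000 in Arl13b-/- 1 to 3, against 8681, 6650 and 7001 in wild-type 1 to 3. Neuron markers were highest in Arl13b-/- 2 and next in wild-type 1. This order rests on a single library of each genotype, and the part of any of these cell types in the Ctgf values was not tested. Embryonic red cell transcripts were lowest in Arl13b-/- 2, with Hbb-y, Hba-x and Hbb-bh1 at 0. Hbb-y, an embryonic globin, had 61914, 0 and 160378 normalized counts in Arl13b-/- 1 to 3, against 397.5, 33298 and 44055 in wild-type 1 to 3. Skeletal and cardiac muscle markers, of which 8 were examined, summed to between 113 and 457 in Arl13b-/- and between 99.4 and 1005 in wild-type, with Actc1 at 0 in Arl13b-/- 2 and Myog in wild-type 3.

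Sex-linked transcripts also divided the libraries. Ddx3y, a Y-linked gene, had 0, 0 and 1.23 normalized counts in Arl13b-/- 1 to 3, against 0.537, 1093 and 1258 in wild-type 1 to 3. Xist, expressed from an inactive X chromosome, had 16292, 244 and 19017 in Arl13b-/- 1 to 3, against 15101, 26.5 and 213 in wild-type 1 to 3. Ddx3y was high in wild-type 2 and 3 alone, so among all 6 libraries only wild-type 1 separates this pattern from genotype. Arl13b-/- 2 was low in both Ddx3y (0) and Xist (244), unlike every other library. Sex and genotype cannot be told apart without Arl13b-/- 2 and wild-type 1. Wild-type 1 shared the sex-linked pattern of Arl13b-/- 1 and 3, and the part of sex in the Ctgf values was not tested.

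Over all 6 libraries limma called none of the 14249 genes tested at an adjusted p of 0.05 (a background of 0%), and 163 had an unadjusted p under 0.05. Of the 10 members 9 passed the filter on low values. The following counts describe them and carry no test, since Ctgf was selected on this contrast. The groups did not overlap for 1 member, Ctgf, where 8.26% of all genes had groups that did not overlap. By direction, Ctgf was the 1 member in the higher direction, where 4.67% of all genes were higher without overlap, and for 0 in the lower direction, where 3.59% were. Of the 9 members 8 differed by less than 0, with a median difference of −0.84, against a median of 0.00 over all genes tested. Without Arl13b-/- 2 and wild-type 1, limma called 36 genes (0.253%) of all those tested. In that fit 2053 of the 14249 genes had an unadjusted p under 0.05. Of all genes, 58.8% lay above 0 there, against 50.2% over 6 libraries. There, 3 members were higher without overlap (Ctgf, Amotl2 and Tead2), where 29.3% of all genes were, and 4 lower (Yap1, Wwtr1, Tead3 and Tead4), where 18.1% were. The median difference of the members was then −0.06, against 0.02 over all genes.

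The upstream Hippo machinery was set beside the members through a list of 47 regulators, of which 46 were in the table and 44 passed the filter. None was called by limma over all 6 libraries, and none had an unadjusted p under 0.05. The differences ran from −1.27 to 0.70 with a median of −0.11, 16 above and 28 below 0. Without Arl13b-/- 2 and wild-type 1 none was called either, and the median was 0.05, against 0.02 over all genes. There, 6 of the 44 had an unadjusted p under 0.05, where 2053 of all 14249 genes did. Over 6 libraries the genes with the smallest p were Frmd6, a FERM-domain activator of the cascade (−0.45 ± 0.23, SE), Vgll3 (−0.74 ± 0.39) and Vgll2 (−0.42 ± 0.23), whose products bind TEAD factors, each with a limma adjusted p of 0.990. In the fit without Arl13b-/- 2 and wild-type 1 they were Wwc1, which encodes the upstream activator KIBRA (0.32 ± 0.078, limma adjusted p = 0.183), Amot, an angiomotin that binds YAP (−0.40 ± 0.11, 0.209), and Vgll3 (−0.97 ± 0.27, 0.215). Vgll3 had 60.5, 173 and 62.2 normalized counts in Arl13b-/- 1 to 3, against 222, 250 and 115 in wild-type 1 to 3, and Arl13b-/- 2 overlapped the controls. Vgll1 was at 0 in the 3 Arl13b-/- libraries, against 1.07, 21.3 and 4.76 in wild-type 1 to 3, and did not pass the filter.

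The core kinase genes overlapped between the groups. Lats1 had 3510, 2825 and 3800 normalized counts in Arl13b-/- 1 to 3, against 3693, 3502 and 3542 in wild-type 1 to 3. Lats2, which is also reported as a YAP target, had 1063, 440 and 1113 in Arl13b-/- 1 to 3, against 757, 1062 and 892 in wild-type 1 to 3. Their differences were −0.09 ± 0.18 and −0.13 ± 0.39 (SE), and that of Stk3 was 0.01 ± 0.28. Stk4 had 3177, 2619 and 3395 in Arl13b-/- 1 to 3, against 2118, 2921 and 3112 in wild-type 1 to 3, a difference of 0.18 ± 0.22. Taok3, an upstream kinase gene, had 1057, 5029 and 982 in Arl13b-/- 1 to 3, against 2059, 943 and 1005 in wild-type 1 to 3 (0.46 ± 0.70). Nf2, which encodes the upstream activator merlin, had 6002, 11877 and 6087 in Arl13b-/- 1 to 3, against 6296, 5579 and 6159 in wild-type 1 to 3, a difference of 0.33 ± 0.31. Unlike Yap1 and the TEAD genes, Nf2 and Taok3 were highest in Arl13b-/- 2. The limma adjusted p was 0.990 for Lats1, Lats2, Stk4, Taok3 and Nf2 and 0.998 for Stk3. These 6 genes were picked for their roles after the values were seen.

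Other reported YAP and TAZ targets lay mostly below 0 over all 6 libraries. Of 25 listed genes, 24 passed the filter, and limma called 0 over all 6 libraries, while 2 had an unadjusted p under 0.05. The median difference was −0.47, with 5 genes above and 19 below 0. Those 2 were lower in Arl13b-/- without reaching the threshold. Tgfb2, a secreted growth factor, had 497, 420 and 409 normalized counts in Arl13b-/- 1 to 3, against 945, 821 and 706 in wild-type 1 to 3. Nt5e, an ectonucleotidase, had 15.3, 22.3 and 11.1 in Arl13b-/- 1 to 3, against 112, 51.6 and 43.3 in wild-type 1 to 3. For both genes every mutant library lay below every control library, as for 3.59% of all genes. The differences were −0.80 ± 0.21 and −0.89 ± 0.27 (SE, limma adjusted p = 0.990 for each). The next smallest p belonged to Rbms3, an RNA-binding protein gene (−0.91 ± 0.53). Without Arl13b-/- 2 and wild-type 1 the list's median was 0.09, 16 genes lay above and 8 below 0, and limma called 0, while 10 had an unadjusted p under 0.05. Of all genes in that fit, 58.8% lay above 0 and 2053 of 14249 had an unadjusted p under 0.05.

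Genes of the serum response factor axis and hypoxia genes were read in the same fit. The first list has 16 genes, namely Srf, the coactivator genes Mkl1 and Mkl2 and actin cytoskeleton genes that they drive. Of these, 15 passed the filter and limma called 0 over 6 libraries, with 0 at an unadjusted p under 0.05 and a median difference of −0.67. The 4 above 0 were Srf (0.27), Mkl1 (0.01), Mkl2 (0.14) and Tes (0.15), and the other 11 lay below 0. Acta2, the smooth muscle actin gene, had 228, 10.5 and 504 normalized counts in Arl13b-/- 1 to 3, against 197, 1396 and 962 in wild-type 1 to 3. Its difference was −1.77 ± 1.0 (SE), and those of Actg2 and Myl9, which encode another smooth muscle actin and a myosin light chain, were −0.67 ± 0.44 and −1.14 ± 0.79 (limma adjusted p = 0.990 for each). In the fit without Arl13b-/- 2 and wild-type 1 the list's median was −0.20, 3 genes lay above and 12 below 0, and limma called 0. In it 6 of the 15 had an unadjusted p under 0.05, where 2053 of all 14249 genes did. There, 8 were lower without overlap, where 18.1% of all genes were, and the difference of Acta2 was −1.59 ± 0.33 (limma adjusted p = 0.144). Of 14 hypoxia-induced genes, 13 passed the filter, and 10 lay above 0, with a median difference of 0.35. None was called by limma over 6 libraries, and 3 had an unadjusted p under 0.05. Aldoa, a glycolytic enzyme gene, had 13456, 16028 and 18409 normalized counts in Arl13b-/- 1 to 3, against 11204, 8851 and 8775 in wild-type 1 to 3. Bnip3, a mitochondrial protein gene, had 912, 1315 and 1598 in Arl13b-/- 1 to 3, against 838, 506 and 502 in wild-type 1 to 3. For both, as for Ldha and Ctgf, every mutant library lay above every control library, as for 4.67% of all genes. Of the 13 hypoxia genes only Aldoa, Bnip3 and Ldha, 3 in all, did so. From the average of wild-type 2 and 3, the list's median differed by 0.49, −0.41 and 0.94 in Arl13b-/- 1 to 3 and by 0.67 in wild-type 1. The part of the hypoxia response in the Ctgf values was not tested. Without Arl13b-/- 2 and wild-type 1, 12 of the 13 were higher without overlap, where 29.3% of all genes were, and Adm, which encodes adrenomedullin, was called (1.66 ± 0.17, limma adjusted p = 0.0483). Adm had 176, 15.8 and 268 normalized counts in Arl13b-/- 1 to 3, against 103, 31.6 and 35.9 in wild-type 1 to 3. Arl13b-/- 2 was thus its lowest library, and over 6 libraries its difference was 0.67 ± 0.66 (limma adjusted p = 0.990).

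**Figure D5:**
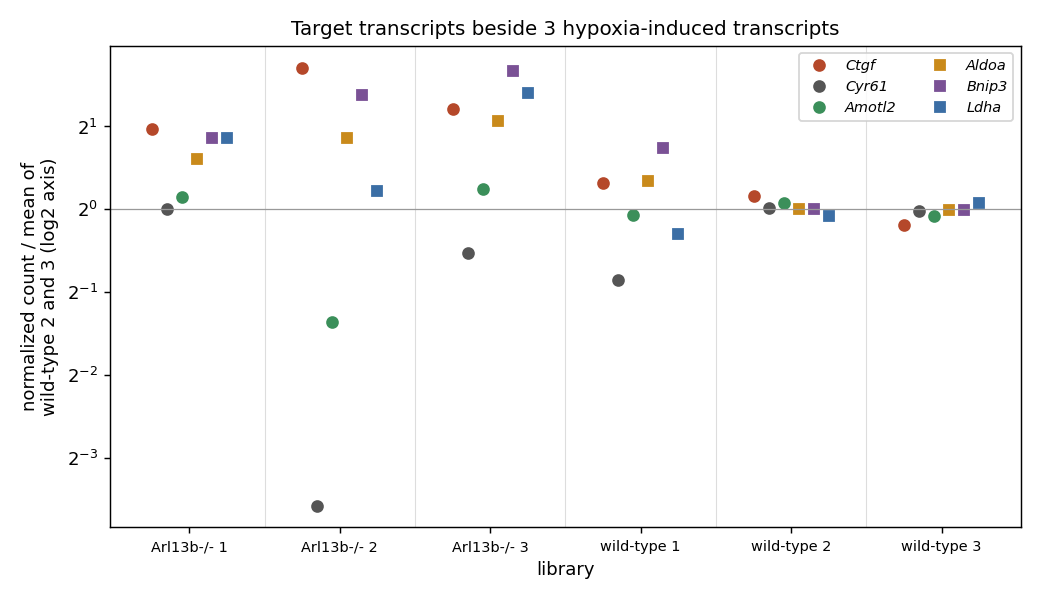
Normalized count divided by the mean of wild-type 2 and 3, on a log2 axis, for Ctgf, Cyr61 and Amotl2 (circles) and for the 3 hypoxia-induced genes with the smallest p over 6 libraries (squares), with the Arl13b-/- libraries left of the wild-type libraries. Ctgf, Aldoa, Bnip3 and Ldha are higher in each Arl13b-/- library than in any wild-type library, and Cyr61 is lowest in Arl13b-/- 2. Of the 13 hypoxia-induced genes tested, only the 3 shown did not overlap between the groups.

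The transcripts whose 6 values were most like those of Ctgf were Vps37b, Necab2, Slc30a3, Ybx3 and Map2k1, with Pearson's r between 0.971 and 0.992. Slc30a3, a zinc transporter gene, had 246, 331 and 293 normalized counts in Arl13b-/- 1 to 3, against 152, 173 and 118 in wild-type 1 to 3. The first of these, Vps37b, ran over a narrow range, with 3016, 3160 and 3041 in Arl13b-/- 1 to 3, against 2821, 2769 and 2670 in wild-type 1 to 3. Those most like Yap1 were Ubp1, Shroom3, Plag1, Prkd3 and Cdca2, with r between 0.9997 and 0.9999. Cdca2, a gene of dividing cells, had 1838, 3.90 and 1881 in Arl13b-/- 1 to 3, against 501, 1784 and 1886 in wild-type 1 to 3. The values of r describe these 6 libraries and rest for Yap1 on Arl13b-/- 2 and wild-type 1, which set nearly its whole range. No p is given for them.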

How the data were processed

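Poly(A) RNA-seq of 6 libraries was analysed, 3 labelled Arl13b-/- and 3 labelled wild-type, grouped by the labels. The table that the authors deposited holds log2-scale values, normalized counts after variance stabilisation, of 24444 gene symbols, between 5.13 and 18.39. The tools named per the submitters' processing notes are STAR 2.6.0, Salmon 0.9.1, CASAVA, DESeq2 and DESeq 1.16.1, on mouse build mm9, and their roles, the annotation and filters were not given in the sources used here. The lowest value, shared by all libraries, stands for a count of 0, and it fixes the constant with which the transformation was undone. The value of 1 read was taken from the densest cluster of the lowest non-zero normalized counts. Log2-scale differences understate the change of low genes.

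Genes with a mean at least 1 above the lowest value (14249) entered limma 3.58.1 under R 4.3.3 (moderated two-sided tests, mean-variance trend, Benjamini-Hochberg adjustment over all genes at 0.05), which was tested on simulated data. The members, the gene lists and the choice to repeat results without Arl13b-/- 2 and wild-type 1 were made with earlier results of these data known. The 10 members were all named, and of other lists the called genes and up to 3 with the smallest p, of marker lists the 2 with the highest mean and those at 0, apart from a few genes not reported here. Lengths are merged exons of GENCODE M21 basic transcripts, which may differ from the authors' annotation, and promoters are RefSeq's (GRCm38.p6). Replicate numbers were not used to pair the libraries in the fit reported, and whether they mark pairs is not known. Figures were drawn with matplotlib 3.10.9.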

Additional observations from a re-analysis of the deposited data

How the results depend on the processing

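Counts of called genes were repeated with no filter, a stricter filter (a mean at least 2 above the lowest value), library weights, robust moderation, median centring, no trend, a replicate block, quantile normalization, log2 of the inverted count plus 1, each library left out, and without Arl13b-/- 2 and wild-type 1. Of all genes, limma called 0 in the fit reported, 3 with no filter, 36 without Arl13b-/- 2 and wild-type 1 and 214 with library weights. With 1 library left out it called between 0 and 4, the 4 arising without wild-type 1. These 4 were the sex-linked genes Ddx3y, Eif2s3y, Kdm5d and Uty. They and Xist were also called without Arl13b-/- 2 and wild-type 1 and with library weights. Hippo regulators stayed at 0 under every setting. Of other YAP and TAZ targets, library weights called 2 (Nt5e and Tgfb2). Of the CCN, ankyrin-repeat, actin and hypoxia genes, they called 8, all hypoxia genes, and 1 (Adm) was called without Arl13b-/- 2 and wild-type 1. The cause of these changes, the part of sex included, was not tested. With the replicate block 0 genes were called, 111 had an unadjusted p under 0.05, and the deviations of same-numbered libraries correlated at −0.714, −0.707 and 0.623. The outlying libraries Arl13b-/- 2 and wild-type 1 carry different numbers and weigh heavily on these values. The correlations therefore cannot tell whether the numbers pair the libraries. The sign of the Ctgf difference was the same in all 16 alternatives (0.85 to 1.20) and that of Tead3 too (−1.25 to −0.04), whereas Cyr61, Amotl2, Yap1, Wwtr1, Tead1 and Tead2 turned above 0 in between 1 and 3 of 16, each time including the fit without Arl13b-/- 2 alone. Tead4 was below 0 in all 15 that tested it (−1.26 to −0.22). Ankrd1 and Tead4 rest on low counts, and depth limits what they can show.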

Other observations

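The relatives of Ctgf and Ankrd1 gave a different picture from these genes. Nov, another secreted CCN gene that is expressed in neurons, had 40.7, 3232 and 32.0 normalized counts in Arl13b-/- 1 to 3, against 452, 27.1 and 25.9 in wild-type 1 to 3. It was highest in Arl13b-/- 2 and next in wild-type 1, the libraries with the most neuron transcripts, and the part of neuron content in the difference of 1.02 ± 1.6 (SE, limma adjusted p = 0.990) was not tested. Wisp1, a CCN gene of mesenchyme, had 144, 13.1 and 151 in Arl13b-/- 1 to 3, against 147, 356 and 165 in wild-type 1 to 3 (−0.95 ± 0.58, limma adjusted p = 0.990). Wisp2 and Wisp3 did not pass the filter, with at most 10.1 normalized counts in any library. Of the muscle ankyrin-repeat genes, Ankrd23 had 64.8, 43.3 and 62.1 in Arl13b-/- 1 to 3, against 67.9, 80.5 and 85.6 in wild-type 1 to 3 (−0.27 ± 0.20, limma adjusted p = 0.990). Its groups did not overlap, as for 3.59% of all genes in the lower direction. Ankrd2 was below the filter, with 34.2 in Arl13b-/- 2 and 14.8 in wild-type 1 and at most 1.55 in the other 4 libraries.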
